A study of Mus musculus with 12 samples.

Results

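The subunits of respiratory complex I encoded in the nucleus were followed in pancreatic islets, the small endocrine organs that hold the insulin-producing beta cells, from mice lacking microRNAs of the miR-17-92 and miR-106b clusters. Members were all rows of the deposited count table whose gene symbol begins with Nduf, then 1 of the letters a, b, c, s or v, then a number, which gave 37 of 23366 rows. Complex I assembly factors (Ndufaf genes) and the shared acyl carrier protein Ndufab1 do not match this rule. Of the 37 members, 16 belong to the hydrophilic arm of the complex, 19 to its membrane arm, and 2, Ndufa4 and Ndufa4l2, to neither. The hydrophilic arm members include the nuclear core subunits, those conserved from bacteria. For the core subunits that mitochondrial DNA encodes, 14 symbols were looked up and 0 were found in the deposited table, so these subunits were not analysed here.

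The comparison set 6 KO libraries, whose genotype label reads miR-17-92/106 KO, against 6 libraries labelled Control, all of strain C57BL/6. Age, sex, alleles, any Cre driver, the time of deletion and the genotype of the control mice are not given in the sources used here. Whether the libraries stem from separate animals is also not stated, so every p-value measures the spread between these libraries, which may be technical. Islets hold beta, alpha, delta and other cells and were sequenced in bulk, so that fewer cells of a type and less RNA per cell cannot be told apart.

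Complex I sits in the inner mitochondrial membrane and is the entry point for electrons from NADH. Flavin and iron-sulfur clusters in the hydrophilic arm pass the electrons to ubiquinone, and the membrane arm couples this to proton pumping. In beta cells the respiratory chain links glucose oxidation to ATP, closure of ATP-sensitive potassium channels and insulin secretion. The deleted microRNAs pair through a short seed with sites that lie mostly in 3′ untranslated regions (UTRs) of messenger RNAs, and lower their stability or translation.

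The mature microRNAs of both clusters fall into 4 seed groups, and their sequences are shown because the site count in the members rests on them. Sequences are from RefSeq (GRCm38.p6), 5′ to 3′, with seed bases 2 to 8 in capitals. The miR-17-92 cluster lies on the plus strand of chromosome 14 and the miR-106b cluster on the minus strand of chromosome 5.
mmu-miR-17-5p: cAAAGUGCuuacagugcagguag
mmu-miR-20a-5p: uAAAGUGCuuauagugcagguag
mmu-miR-106b-5p: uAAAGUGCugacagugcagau
mmu-miR-93-5p: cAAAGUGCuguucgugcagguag
mmu-miR-18a-5p: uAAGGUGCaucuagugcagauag
mmu-miR-19a-3p: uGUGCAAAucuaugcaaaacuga
mmu-miR-19b-3p: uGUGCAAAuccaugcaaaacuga
mmu-miR-92a-3p: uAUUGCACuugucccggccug
mmu-miR-25-3p: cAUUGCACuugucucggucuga

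A 7-base match to one of these seeds was present in the longest annotated 3′ UTR of 4 of the 37 members (10.8%), against 3074 of 8933 tested genes with such a UTR (34.4%). The members have short 3′ UTRs, with a median of 197 bases (range 41 to 4012) against 1206 bases for all tested genes. Per kilobase of UTR the members held 0.247 sites and the tested genes 0.314. Ndufa10 and Ndufb2 each had 1 site for the miR-17 seed, Ndufb4 had 1 for the miR-18a seed and Ndufa5 1 for the miR-92 and miR-25 seed. No member had a site for the miR-19 seed, which 13.6% of tested genes had. The site in Ndufb2 lay at base 3926 of a 3′ UTR of 4012 bases, the longest of any member. The 4 sites are given on the transcript strand, from the GENCODE annotation of GRCm38, with the seed match in capitals.
Ndufa10 (chromosome 1, minus strand): cacccacccctGCACTTTgggtctctcac
Ndufb2 (chromosome 6, plus strand): tcaattacataGCACTTTttggggggttg
Ndufb4 (chromosome 16, minus strand): gctcagtgtctGCACCTTtcctgcctgag
Ndufa5 (chromosome 6, minus strand): gggaattaaatGTGCAATtaaatgctctg

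Library size and makeup set the frame for the levels. Total counts per library lay between 2642420 and 5099566. The 37 members took 0.277% ± 0.019 of the counts in KO libraries and 0.277% ± 0.013 in controls (SD, n = 6 each). The islet label fitted the markers: beta cell markers summed to 529530 to 705710 CPM (counts scaled to the library size) in each of the 12 libraries. Acinar markers summed to 154570 CPM in KO replicate 5, 120150 CPM in KO replicate 6 and 58890 CPM in control replicate 1, and to 12527 to 23436 CPM in the other 9 libraries. Endothelial markers summed to 85.3 to 115 CPM in KO and 120 to 130 CPM in control libraries; these ranges did not overlap. Of the 6 erythroid markers, 4 globin genes were listed at 0 in every library, and the list summed to 139 to 280 CPM in KO and 62.5 to 167 CPM in control libraries. The part of these marker differences in the complex I values was not tested beyond the fits given with each result.

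Per kilobase of the longest coding transcript, the members reached high levels in islets but differed widely from each other. Their median over the 35 tested members was 65.8 CPM per kilobase, against 4.39 CPM per kilobase for all 8954 tested genes with a length. The most abundant per length were Ndufa2, a hydrophilic arm subunit with a thioredoxin-like fold, at 246 ± 27.4, Ndufa1, a small single-span subunit of the membrane arm, at 235 ± 25.6, and Ndufa6, which binds an acyl carrier protein, at 234 ± 35.8 CPM per kilobase (SD, 12 libraries). These 3 lay within 1 SD of each other. The least abundant were Ndufa9, which sits near the junction of both arms, at 16.7 ± 3.01, Ndufa10, a membrane arm subunit with a nucleoside kinase fold, at 9.88 ± 1.75, and Ndufs1, the large core subunit that holds several iron-sulfur clusters, at 5.13 ± 0.86 CPM per kilobase.

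Core subunits sit as single copies in each complex, yet their transcripts differed in level per length, with Ndufs1 at 5.13 ± 0.86 and Ndufs7 at 52.5 ± 3.44 CPM per kilobase (SD, 12 libraries). The median was 39.2 CPM per kilobase for the core subunits, 48.4 for the hydrophilic arm and 80.8 for the membrane arm. The order depended on the length chosen for several members. Divided by coding length instead, Ndufc1 moved from rank 17 to rank 3 and Ndufb2 from rank 29 to rank 4, while Ndufa2 and Ndufa1 stayed at ranks 1 and 2 and the lowest 3 kept their order.

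**Figure D1:**
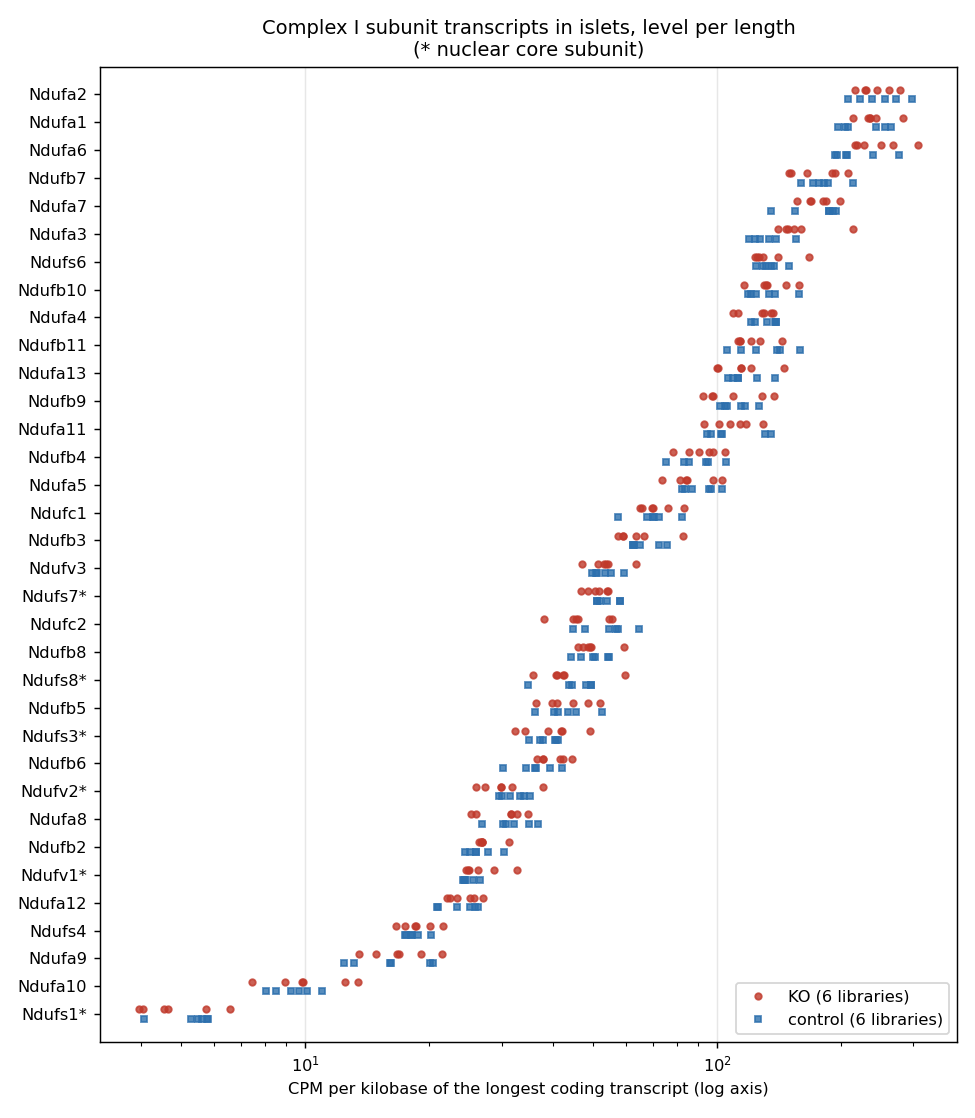
Level of 34 tested complex I members in CPM per kilobase of the longest coding transcript on a log axis, with 1 red circle per KO library and 1 blue square per control library, ordered by the mean over the 12 libraries. Members span from Ndufs1 at 5.13 to Ndufa2 at 246 CPM per kilobase, while the KO and control points of every member overlap.

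In KO against control islets, no tested complex I subunit passed the test. Of the 35 tested members, 0 reached an adjusted p of 0.05 in edgeR's quasi-likelihood test with Benjamini-Hochberg adjustment over 9664 genes, where 12 genes did (0.124% of those tested; 0.0724% higher and 0.0517% lower in KO). DESeq2 and voom also called 0 members. At an unadjusted p under 0.05 there were 2 members, among them Ndufa3, in a table where 7.91% of all genes fell under that value. No member had KO and control values that did not overlap, against 0.579% of all genes tested.

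In the main fit, the estimates bound how far the member transcripts could have differed between these libraries. The log2 fold changes of the members given here ran from -0.20 to 0.27, and over all 35 the median was 0.01, with 19 above and 16 below 0, and the median over all tested genes was 0.00. The median size of the change, without its sign, was 0.05 for the members and 0.11 for all genes, and the median SE was 0.09 for the members and 0.15 for all genes. The 95% interval of each of the 35 members lay within 1.5-fold of no change in either direction, which held for 73.9% of all tested genes. A change of 1.5-fold at the transcript level thus lay outside the interval of every tested member in this fit. The interval does not cover a shift tied to the library title numbers, which were lower in every KO than in every control library.

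**Figure D2:**
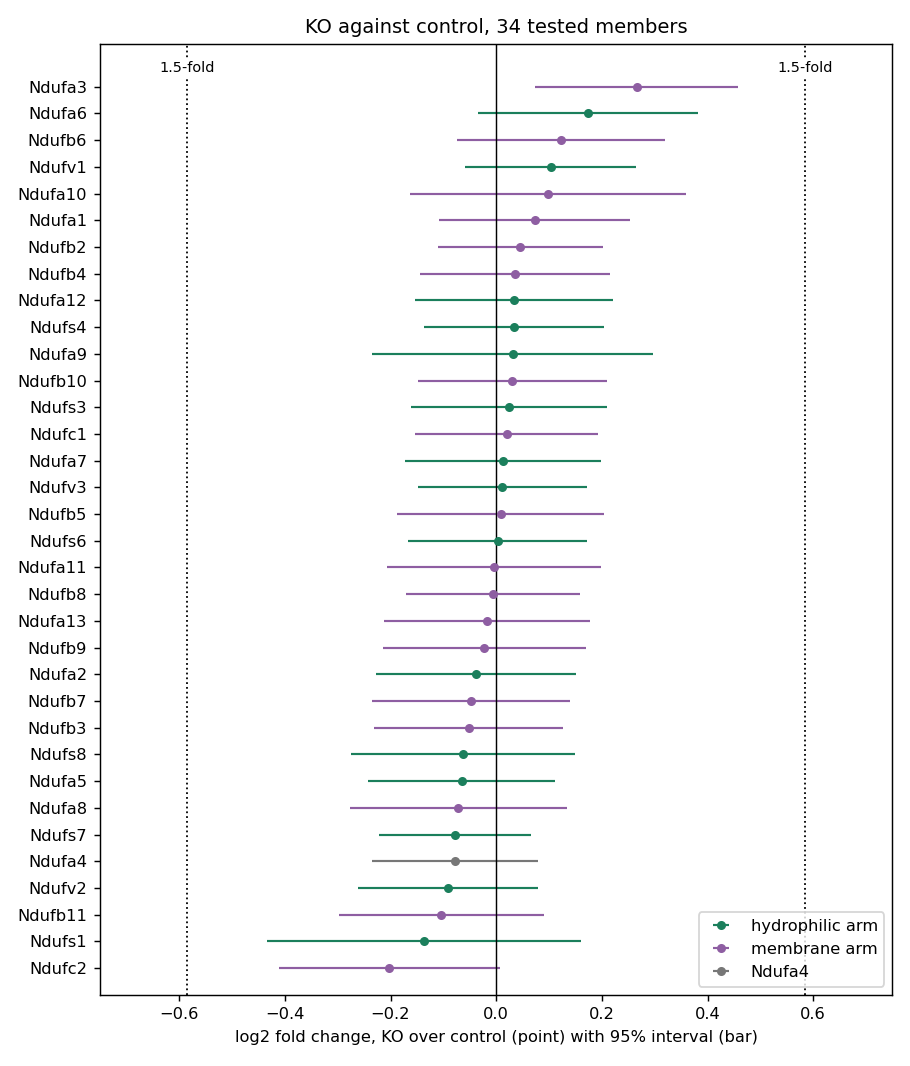
Log2 fold change of KO over control for 34 tested members, with bars for the 95% interval of edgeR's fit and colours for the hydrophilic arm, the membrane arm and Ndufa4; dotted lines mark 1.5-fold. Estimates run from -0.20 for Ndufc2 to 0.27 for Ndufa3, and no bar crosses a dotted line.

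No core subunit passed the test, and those given here had estimates between -0.14 and 0.10. Ndufv1, which binds the flavin that takes the electrons from NADH, had a median of 42.5 CPM in KO (40.7 to 54.4) and 40.6 CPM in control libraries (40.2 to 44.1). Of its 6 KO libraries, 3 lay above the control mean and 6 above the control median. Its log2 fold change was 0.10 ± 0.08 (adjusted p = 0.798, edgeR), and 0.05 without KO replicate 5, its highest library. Its partner Ndufv2, an iron-sulfur protein next to the flavin site, had a median of 50.6 CPM in KO (44.1 to 64.1) and 54.8 CPM in control libraries (50.2 to 59.7), and a log2 fold change of -0.09 ± 0.08 (adjusted p = 0.857, edgeR), with -0.05 without KO replicate 2 and -0.15 without KO replicate 6. The pair that first receives the electrons thus had estimates of opposite sign, each about as large as its error.

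Ndufs1 had a median of 12.2 CPM in KO (10.5 to 17.5) and 14.8 CPM in control libraries (10.8 to 15.4). Both ends of its KO range lay outside the control range, and its SE of 0.14 was the largest of any member, with a log2 fold change of -0.14 (adjusted p = 0.897, edgeR). The estimate was -0.25 without KO replicate 3, -0.09 without KO replicate 1 and -0.07 without KO replicate 4. Ndufs7, which carries the last iron-sulfur cluster before ubiquinone, had a median of 50.3 CPM in KO (45.9 to 53.5) and 52.0 CPM in control libraries (50.2 to 57.3). Of its 6 KO libraries, 1 lay above the control mean and 2 above the control median. Its log2 fold change of -0.08 ± 0.07 (adjusted p = 0.854, edgeR) was the most tightly measured of the members. Ndufs8, which holds a pair of iron-sulfur clusters on the path to Ndufs7, averaged 43.8 ± 8.30 CPM in KO and 45.2 ± 5.59 CPM in control libraries (SD over 6 libraries in each group), and Ndufs3, a core subunit without such a cluster, averaged 41.5 ± 6.36 CPM in KO and 40.5 ± 2.60 CPM in controls (SD, n = 6 each). Their log2 fold changes were -0.06 ± 0.10 for Ndufs8 and 0.02 ± 0.09 for Ndufs3, whose sign was negative in 5 of the alternative fits. The estimate of Ndufs8 ran from -0.16 without KO replicate 6 to -0.01 without KO replicate 3.

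Among the 9 accessory subunits of the hydrophilic arm, which surround the core, Ndufa6 had the largest estimate. It had a median of 141 CPM in KO (128 to 182) and 122 CPM in control libraries (114 to 163). Of the 6 KO libraries, 4 lay above the control mean and 6 above the control median. The ranges overlapped over most of their length, and the log2 fold change was 0.17 ± 0.10 (adjusted p = 0.714, edgeR). It was 0.10 without KO replicate 6 or with an acinar covariate. With a term for the numbers in the library titles, which leaves only control replicate 1 against the KO libraries, it turned to -0.16. Ndufa2 averaged 139 ± 13.4 CPM in KO and 143 ± 18.8 CPM in control libraries, with a log2 fold change of -0.04 ± 0.09, and Ndufa9 averaged 24.7 ± 4.17 CPM in KO and 23.7 ± 4.85 CPM in control libraries, with 0.03 ± 0.13 (SD, n = 6 each). The sign of both estimates changed when single libraries were left out. The remaining accessory subunits of this arm were Ndufs4, whose loss in mice gives a Leigh-like disease, the zinc protein Ndufs6, Ndufv3, Ndufa5, Ndufa7 and Ndufa12, and their log2 fold changes lay between -0.07 and 0.03.

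In the membrane arm, Ndufa3, a small single-span subunit near the arm junction, had the smallest p of all members. Its lowest, median and highest values were 72.2, 77.8 and 110 CPM in the KO libraries, against 61.4, 67.3 and 79.9 CPM in the control libraries. All 6 KO libraries lay above the control mean, and 1 control library, replicate 4 at 79.9 CPM, lay above 4 of them. The log2 fold change was 0.27 ± 0.09 (SE; 1.05-fold to 1.37-fold; adjusted p = 0.413, edgeR). Without KO replicate 6 it was 0.17 ± 0.08 (adjusted p = 0.640), smaller by more than 1.5 times.

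Ndufc2, which pairs with Ndufc1 in this arm, had the largest decrease in estimate, with a median of 31.2 CPM in KO (26.0 to 38.0) and 38.1 CPM in control libraries (30.5 to 44.1). The groups overlapped, with 2 of 6 KO libraries above the control mean and 0 above the control median. The log2 fold change was -0.20 ± 0.10 (adjusted p = 0.657, edgeR). Ndufc1 itself averaged 89.3 ± 8.48 CPM in KO and 87.4 ± 9.90 CPM in control libraries, with a log2 fold change of 0.02 ± 0.08. Ndufb6, a single-span subunit of the distal membrane arm, had a median of 26.2 CPM in KO (24.1 to 29.3) and 23.9 CPM in control libraries (19.9 to 27.7), with all 6 KO libraries above the control mean. Its log2 fold change was 0.12 ± 0.10 (adjusted p = 0.806, edgeR), and 0.07 without control replicate 2. For this gene 39.0% of its annotated exonic bases lie opposite exons of Smim27, so that its reads cannot be told apart from that gene's if the counting ignored strand.

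Ndufa1 and Ndufa10, near opposite ends of the level range, gave log2 fold changes of 0.07 ± 0.09 and 0.10 ± 0.13. Ndufa1 averaged 101 ± 9.61 CPM in KO and 95.9 ± 12.1 CPM in control libraries (SD over 6 libraries in each group). Ndufa10 averaged 20.9 ± 4.56 CPM in KO and 19.0 ± 2.19 CPM in controls (SD, n = 6 each), and its KO libraries ran from 14.96 to 27.2 CPM, beyond both ends of the control range of 16.2 to 22.2 CPM. Each estimate turned negative in 1 alternative fit, and with 1 library left out they ran from 0.02 to 0.12 for Ndufa1 and from 0.03 to 0.18 for Ndufa10. The other 12 tested membrane arm subunits, among them Ndufa13 (also known as GRIM-19), the intermembrane space proteins Ndufa8 and Ndufb7, and Ndufb9, which binds an acyl carrier protein, had log2 fold changes between -0.10 and 0.05. By arm, 10 of 16 hydrophilic members lay above 0 (median 0.01) and 9 of 18 membrane members (median 0.00), and 0 of either arm passed the test.

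None of the members that carry a seed site passed the test. Ndufb2 had a log2 fold change of 0.05 ± 0.08, Ndufa10 of 0.10 ± 0.13, Ndufb4 of 0.04 ± 0.09 and Ndufa5 of -0.07 ± 0.09. The median was 0.04 over these 4 and 0.00 over the 31 tested members without a site, against -0.00 over 3074 tested genes with a site and 0.01 over 5859 without. Ndufb2, with the longest 3′ UTR, had a median of 118 CPM in KO (115 to 136) and 113 CPM in control libraries (107 to 133).

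Of the rows that match the name pattern, 3 need separate mention. Ndufa4, first purified with complex I and since placed with complex IV, averaged 76.5 ± 7.15 CPM in KO and 80.6 ± 4.96 CPM in control libraries, with a log2 fold change of -0.08 ± 0.08 (adjusted p = 0.875, edgeR), and -0.04 without KO replicate 1. Ndufa4l2, its hypoxia-induced relative, did not pass the filter on low counts, with 59 counts over the 6 KO libraries (4 to 20 each) and 37 over the 6 control libraries (2 to 12 each). Ndufs5, an intermembrane space subunit of the membrane arm, had 0 counts in all 12 libraries, which allows a level of up to 0.618 to 1.27 CPM depending on the library, for counting error only. All other structural members had at least 10.5 CPM in every library, and how the counting treated Ndufs5 was not stated.

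Members were high or low together in some libraries of either group. All 37 members summed to 2619, 2623, 2844, 2637, 2916 and 3326 CPM in KO replicates 1 to 6. In control replicates 1 to 6 the sums were 2795, 2504, 2818, 3135, 2637 and 2565 CPM. The means were 2827 ± 275 CPM in KO and 2742 ± 229 CPM in control libraries (SD over 6 libraries in each group), a difference smaller than the SD of either group, and without KO replicate 6 the KO mean was 2728 ± 141 CPM. KO replicate 6 and control replicate 4 were the highest libraries of their groups. In KO replicate 6, 31 of the 35 tested members lay above their own mean over the 12 libraries, and in control replicate 4 it was 33. This compares with 4 in control replicate 2 and 7 in KO replicates 1 and 2.

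**Figure D3:**
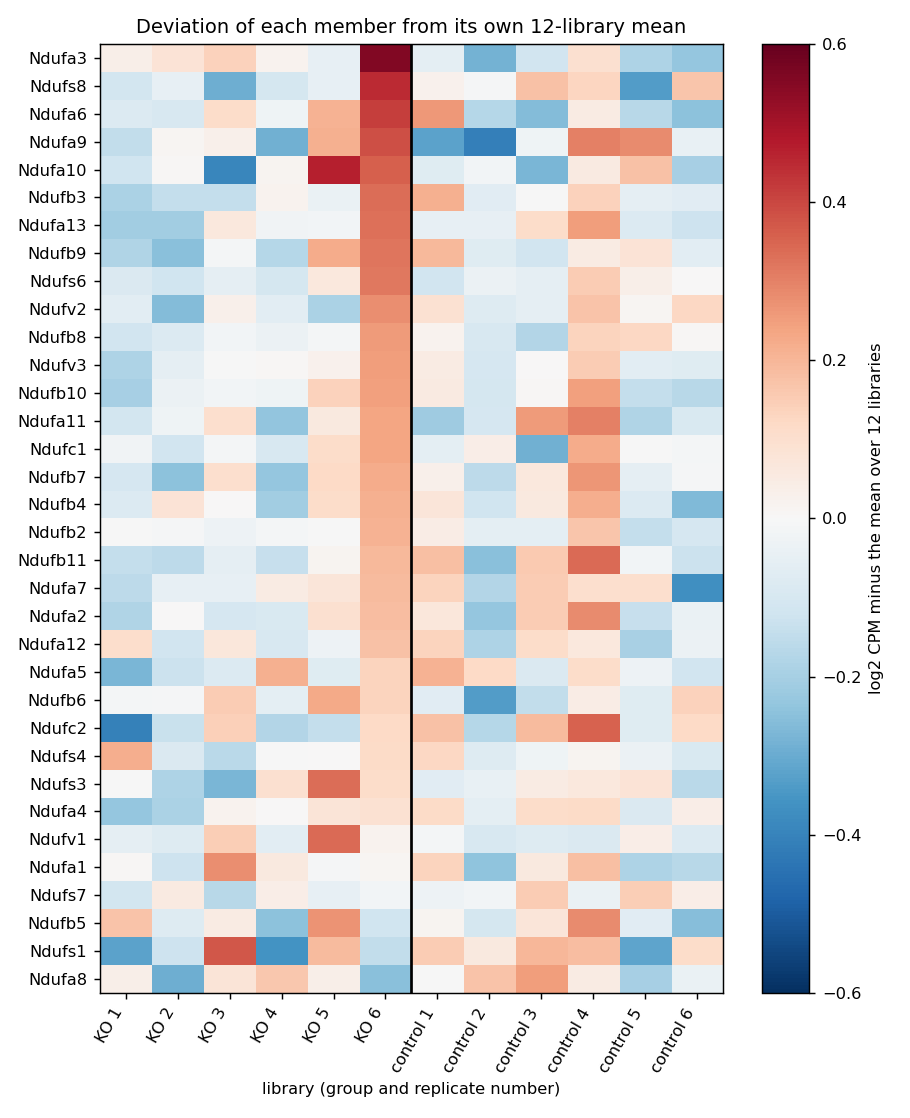
Deviation of each of 34 tested members (rows) from its own mean over the 12 libraries, in log2 CPM, with KO replicates in the left 6 columns and control replicates in the right 6. KO replicate 6 and control replicate 4 are red over most rows, and control replicate 2 is mostly blue.

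In KO replicate 6 Ndufa3 had the highest deviation, at 0.56 on the log2 scale. In 23 of the 35 members KO replicate 6 was the highest KO library, and in 20 of 35 control replicate 4 was the highest control library. Ndufs1, Ndufa8, Ndufb5 and Ndufs7 were below their means in KO replicate 6. Some other gene groups were also high in these libraries, but not all. Complex II subunits summed to 219 CPM in KO replicate 6 and 253 CPM in control replicate 4, with 197 to 253 CPM over the 12 libraries. Complex I assembly factors summed to 125 CPM in KO replicate 6 and 117 CPM in control replicate 4, with 99.6 to 131 CPM over the 12 libraries. Complex III subunits summed to 1042 CPM in KO replicate 6 and 961 CPM in control replicate 4, with 803 to 1042 CPM over the 12 libraries. Complex IV subunits without Ndufa4 summed to 1445 CPM in KO replicate 6 and 1515 CPM in control replicate 4, with 1203 to 1515 CPM over the 12 libraries. Complex V subunits summed to 2376 CPM in KO replicate 6 and 2323 CPM in control replicate 4, and to 1962 to 2212 CPM in the other 10 libraries. Cytosolic ribosomal protein genes, used as a second group of short and abundant transcripts, summed to 41856 CPM in KO replicate 6 and 34261 CPM in control replicate 4, with 26667 to 34125 CPM in the others. Macrophage and lymphocyte markers summed to 234 CPM in KO replicate 6 and 44.1 CPM in control replicate 4, with 35.3 to 65.9 CPM in the other 10 libraries. The complex III, complex IV, complex V, ribosomal and macrophage and lymphocyte sums move with the complex I sum in KO replicate 6. Their part in it was not tested.

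**Figure D4:**
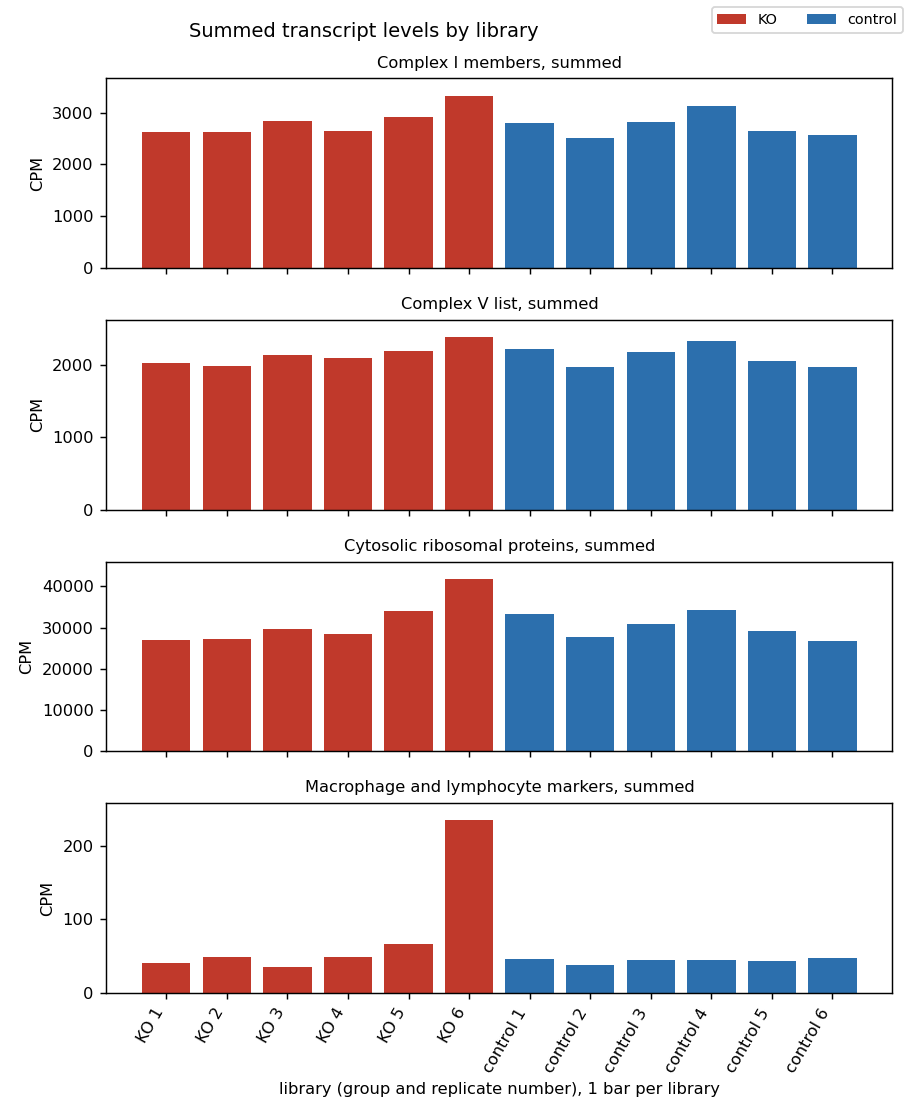
Summed CPM of complex I members, complex V genes, cytosolic ribosomal protein genes and macrophage and lymphocyte markers in each library, 1 bar per library, with KO in red on the left and control in blue on the right. KO replicate 6 is the highest bar in each panel, at 3326 CPM for complex I and 234 CPM for the macrophage and lymphocyte markers.

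The direction of the members as a group rested on single libraries. Without KO replicate 6, 12 of 35 members lay above 0 and the median log2 fold change was -0.04, and without control replicate 4 it was 24 of 35 and 0.04. Without the 3 libraries of high acinar share, 9 members lay above and 26 below 0, with a median of -0.07. In these fits, too, 0 members passed the adjusted p of 0.05, so no direction can be given to the group.

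The lists for the rest of the respiratory chain and its supply of NADH held 2 called genes, Cox7b and Gpd2. These lists were chosen with earlier results of these data known, so the 2 calls are no independent finding about the chain. Among all 9664 tested genes, 12 were called (0.124%). Of 13 tested complex I assembly factors, which build the complex and leave it, 0 passed the test, with a median log2 fold change of -0.00 and the smallest p for Timmdc1 (-0.28 ± 0.18). The same held for 4 subunits of complex II, with a median of -0.08 and the smallest p for Sdhc (-0.20 ± 0.08), for 9 of complex III, with a median of -0.00 and Uqcrq at 0.19 ± 0.10, and for 16 of complex V, with a median of -0.00 and Atp5o at 0.13 ± 0.10. Of 8 tested regulators of mitochondrial biogenesis 0 passed, with a median of -0.06 and Pprc1 at -0.37 ± 0.20. Of 73 tested cytosolic ribosomal protein genes 0 passed, with a median of 0.05 and the smallest p for Rps9 (-0.44 ± 0.09, adjusted p = 0.0538, edgeR).

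In complex IV, 1 of 11 genes passed. Cox7b, a small nuclear subunit of cytochrome c oxidase, fell to 85.7 ± 12.7 CPM in KO, against 132 ± 29.4 CPM in control libraries (SD over 6 libraries), which gave a log2 fold change of -0.64 ± 0.13 (adjusted p = 0.0379, edgeR). Control replicate 1, at 76.5 CPM, lay inside the KO range of 65.3 to 98.1 CPM. It is the only control library with a title number up to 706, as all KO libraries have. For Cox7b, title number and genotype thus cannot be told apart. The complex IV list held 0 calls in DESeq2 and in 9 of the 12 fits that left out 1 library. The libraries left out were KO replicates 1 to 4 and control replicates 2 to 6, each in turn.

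Among 12 tested genes that carry cytosolic NADH electrons into mitochondria or feed the ubiquinone pool, 1 passed. Gpd2, the mitochondrial glycerol-3-phosphate dehydrogenase that passes electrons to ubiquinone without complex I, fell to 30.4 ± 4.75 CPM in KO, against 43.2 ± 5.73 CPM in control libraries (SD over 6 libraries), which gave a log2 fold change of -0.52 ± 0.10 (adjusted p = 0.0244, edgeR). KO values ran from 26.3 to 39.6 CPM, and 1 control library, replicate 1 at 33.2 CPM, lay inside that range. That library is again the only control with a title number up to 706, so title number and genotype cannot be told apart for Gpd2 either. This list held 0 calls in 8 of the 12 fits that left out 1 library. The libraries left out were KO replicates 1 to 5 and control replicates 2, 4 and 5, each in turn. Ndufab1, the acyl carrier protein shared by complex I and lipoic acid synthesis, averaged 9.38 ± 2.05 CPM in KO and 9.76 ± 2.87 CPM in control libraries, with a log2 fold change of -0.03 ± 0.19.

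The start sites of some members hold letters that regulators of mitochondrial genes are known to bind. RefSeq windows of GRCm38.p6 that run from 250 bases before to 50 after the start were found for 32 members (34 windows) and searched on both strands. The letters GCGCA, any base and GCGC, bound by the regulator NRF1, occurred in 8 windows of 7 members (23.5% of member windows; both Ndufa5 windows hold the same match), against 10.8% of 9444 windows of tested genes and 4.60% of all 32851 windows. The letters AAGATGGC, bound by YY1, occurred in 7 member windows (20.6%), against 4.90% of tested gene windows and 2.75% of all, and every match in the members began 23 to 39 bases after the start. The letters CCGGAAG, bound by ETS factors, occurred in 4 member windows (11.8%), against 18.7% of tested gene windows and 8.86% of all. No enrichment was tested. Only Ndufs6 had matches to more than 1 of the 3, and these did not overlap. The median number of CpG pairs was 19.5 in member windows, 21.0 in tested gene windows and 7.0 in all. To show such a match, 3 stretches upstream of the start that hold the NRF1 letters are printed on the strand of the gene, with the match in capitals; in Ndufa8 the match is on the other strand. A match is a description of the sequence and not a measured site.
Ndufa11 (chr17:56717692-56717721, plus strand): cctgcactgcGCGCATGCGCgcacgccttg
Ndufb4 (chr16:37654428-37654457, minus strand): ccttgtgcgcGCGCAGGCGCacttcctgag
Ndufa8 (chr2:36049349-36049378, minus strand): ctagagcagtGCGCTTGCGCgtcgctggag

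No tested member with these letters passed the KO against control test. With the NRF1 letters, Ndufa11 averaged 101 ± 11.7 CPM in KO and 101 ± 16.5 CPM in control libraries, with a log2 fold change of -0.00 ± 0.10. Ndufb4 had 0.04 ± 0.09, Ndufa8 -0.07 ± 0.10, Ndufa5 -0.07 ± 0.09, Ndufa6 0.17 ± 0.10 and Ndufs6 0.00 ± 0.08. With the ETS letters, Ndufb6 had 0.12 ± 0.10, Ndufb7 -0.05 ± 0.09, Ndufs3 0.02 ± 0.09 and Ndufs8 -0.06 ± 0.10. Of the tested members with the YY1 letters, Ndufa3 had 0.27 ± 0.09, while Ndufs4, Ndufs6, Ndufs7, Ndufa9, Ndufb8 and Ndufc1 lay between -0.08 and 0.03. The authors' deposited values rest on the same libraries, and there 34 of the 35 tested members had the same sign as here. In them 2 members, among them Ndufa3 (log2 fold change 0.26, the authors' p = 0.00819), had an unadjusted p under 0.05. After Benjamini-Hochberg adjustment of those p-values, 0 members and 21 of all 16269 genes with a p-value were under 0.05.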

How the data were processed

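Per the labels' protocols, islet RNA was taken up in Trizol and purified on miRNeasy columns. The submitters' processing notes list TopHat2, HTSeq, DESeq2 1.4.5 and mm9 and give no roles; strandedness and the annotation are not given in the sources used here. Per the file headers, the deposited table held raw counts per gene, with the authors' own log2 fold change and unadjusted p-value. A block of normalized counts of the same libraries, per the file headers, was not used. In 27 rows, with 0.0447% of counts, names had turned into dates, and these were left out.

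The members, the gene lists and the tests were chosen with earlier results of these data known. Tests ran on all genes with edgeR 4.0.16 (R 4.3.3), quasi-likelihood, TMM factors, a filter on low counts (minimum count 10, minimum total 15) and Benjamini-Hochberg adjustment at 0.05; 35 of 37 members passed the filter. SE is the size of the log2 fold change divided by the root of F. CPM uses TMM-scaled library sizes. Lengths, 3′ UTRs and exon overlaps came from GENCODE for GRCm38, matched by symbol, and 16 members share exonic bases with another annotated gene; no coordinates of this build are set beside those of mm9. Named members were those past the threshold, the 8 with the smallest p, the nuclear core subunits, the 3 highest and 3 lowest per length, Ndufa4 and Ndufa4l2, and of each list the called genes or the 1 with the smallest p; others were named after their values were seen. The values of 1 member are not reported here; it remains in the fits, counts, medians and sums. Total counts of 2642420 to 5099566 per library set the precision, and reads are not independent molecules. Among 66 library pairs none differed by as little as sampling noise, so none was treated as a copy of another. This does not show that the libraries stem from separate animals. The tests were checked on simulated data. Alternatives were DESeq2 1.42.0, voom of limma 3.58.1, other scalings and filters, covariates and left-out libraries.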

Additional observations from a re-analysis of the deposited data

Results flagged for a closer look

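Within the groups of 6 libraries, the highest or lowest library was compared with its nearest neighbour by Dixon's ratio at its 95% critical value. Of 106 groups tested, 9 passed. Chance gives about 1 in 20 for independent groups. The groups tested here share the same libraries, and members moved together, so the count cannot be set against that rate. For complex I members, KO replicate 6 was set apart as the highest KO library for Ndufa3 (109.87 CPM, next 82.2), Ndufb2 (136.23 CPM, next 118), Ndufb3 (62.99 CPM, next 50.6), Ndufb8 (127.44 CPM, next 106) and Ndufs8 (60.06 CPM, next 42.6). Control replicate 5 was set apart as the lowest control library for Ndufs1 (10.775 CPM, next 14.1). The same library, KO replicate 6, had the highest sum of macrophage and lymphocyte markers (234.38 CPM, next 65.9), and control replicate 2 the lowest of the controls (37.856 CPM, next 43.8). Control replicate 1 had the highest acinar marker sum of the controls (58890 CPM, next 23436). The part of these marker sums in the member values was not tested.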

How the results depend on the processing

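In all 23 alternative fits, and at an adjusted p of 0.10, 0 complex I members were called, and the lowest adjusted p of any member ran from 0.322 to 0.884. Of 9664 genes, 12 were called in the main fit. The count was 28 with DESeq2, 26 without insulin and acinar genes and 22 with no filter on low counts. It was 34 with an acinar covariate, 30 without the 3 libraries of high acinar share and 26 at an adjusted p of 0.10. With 1 library left out it ran from 5 to 17. The fit with the title term sets only control replicate 1 against the KO libraries, so its count is not set beside these. The complex IV list had 0 calls with DESeq2, and both it and the NADH list had 0 to 1 with 1 library left out. The ribosomal list had 1 call with DESeq2, without insulin and acinar genes, with no filter, at a minimum count of 30, with the acinar covariate, without the 3 libraries, with voom and at an adjusted p of 0.10, and 0 to 1 with 1 library left out. The median of the hydrophilic minus that of the membrane arm was 0.01, moved to -0.044 with the title term and ran from -0.033 to 0.020 with 1 library left out. Signs reversed for Ndufs3 (-0.017 with the acinar covariate, -0.074 without the 3 libraries, -0.0025 with voom, -0.035 to 0.077 with 1 library left out), Ndufa9 (-0.012 with the acinar covariate, -0.13 without the 3 libraries, -0.049 to 0.12 with 1 library left out), Ndufa10 (-0.062 without the 3 libraries), Ndufa6 (-0.16) and Ndufa1 (-0.089) with the title term, and Ndufa2 (-0.086 to 0.022 with 1 library left out); the cause was not tested.

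Title numbers up to 706 hold the 6 KO libraries and control replicate 1, and higher numbers hold controls only. Title number and genotype thus cannot be told apart. The fit with the title term sets the 6 KO libraries against control replicate 1 alone, so its estimates rest on 1 control library. What the numbers stand for is not stated. Replicate numbers did not pair the libraries: deviations of same-numbered libraries correlated at -0.12 to 0.06, and with the replicate block 15 genes and 0 members were called, with a median member log2 fold change of 0.00. Ndufa4l2 and Ndufs5 did not pass the filter on low counts of the main test.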
